A study of Mus musculus with 6 samples.

Results

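The mitochondrial ribosomal protein genes were examined in mouse pancreatic islets, small bodies of endocrine cells that release insulin and other hormones. Members were the genes of the deposited table whose symbol starts with Mrpl or Mrps followed by a digit, without the entries marked as pseudogenes by -ps. They numbered 77 of 18437 genes, 48 with an Mrpl symbol and 29 with an Mrps symbol. RNA was sequenced from 3 libraries of Sec16b-/- islets (knockout) and 3 libraries of Sec16b+/+ islets (wild type), all from male mice aged 30 weeks. Sec16b encodes a protein of the sites where cargo leaves the endoplasmic reticulum. The labels name no other allele and do not state which part of the gene was deleted. Nor do they link libraries to individual mice, so the p-values speak for the spread among these libraries, which may be technical.

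Mitochondria carry their own ribosome, which translates the few proteins encoded in mitochondrial DNA, all of them parts of the respiratory chain and the ATP synthase. Its ribosomal RNAs come from the mitochondrial genome, while all of its proteins are encoded in the nucleus and imported. Mrpl genes encode proteins of the large subunit, which forms the peptide bond, and Mrps genes encode proteins of the small subunit, which reads the messenger RNA. Some members descend from bacterial ribosomal proteins and others have no bacterial counterpart. A few symbols mislead. Mrps18a and Mrps30 encode proteins that sit in the large subunit, and Mrps36 is now assigned to the 2-oxoglutarate dehydrogenase complex. In beta cells, oxidation of glucose by mitochondria supplies the ATP that triggers insulin release.

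The libraries held between 22071895 and 26806787 recovered reads. Sec16b itself was at 553, 433 and 749.5 normalized counts in knockout replicates 1, 2 and 3, against 1655, 773 and 1786 in wild type replicates 1, 2 and 3. Its log2 fold change was -1.22 (SE 0.35, limma adjusted p = 0.993), and the transcript was read in all knockout libraries. The 12 beta cell markers took between 9.40% and 14.9% of knockout reads and between 11.6% and 15.2% of wild type reads. Acinar cells of the exocrine pancreas were present in unequal amounts. Of 37 acinar markers 36 were in the table, and together they took 18.0%, 8.74% and 0.817% of reads in knockout replicates 1, 2 and 3. In wild type replicates 1, 2 and 3 they took 6.02%, 1.33% and 3.69%. Lymphocyte markers, 8 of 12 in the table, took between 0.0334% and 0.537% of knockout reads and between 0.0015% and 0.109% of wild type reads.

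Mitochondrial ribosomal protein genes differed little between knockout and wild type islets. The median log2 fold change, knockout minus wild type on the log2(value + 1) scale, was -0.04 over the 77 members, and single values ran from -0.28 to 0.25. Over all 16042 genes tested the median was -0.0030. Limma called 0 members at an adjusted p under 0.05 (lowest adjusted p = 0.993), and 0% of all genes. At an unadjusted p under 0.05 there was 1 member, which was lower in knockout libraries, or 1.30% of members. The share of all genes tested was 3.08%, with 1.36% lower and 1.72% higher. The groups did not overlap in 3 members, 1 higher and 2 lower in knockout libraries, which is 3.90% of members against 9.08% of all genes tested (3.85% higher and 5.22% lower). All 77 members passed the filter on low values.

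The fold changes of the members also lay closer together than those of genes at large. Their standard deviation across genes was 0.10, against 0.36 over all genes tested, and their quartiles were -0.11 and 0.02. Only Mrpl51 had an absolute log2 fold change above 0.25, or 1.30% of members against 28.8% of all genes tested (19.7% higher and 9.08% lower). For 72 members the 95% interval of the fold change lay within 1.5-fold either way, a property of 46.3% of all genes tested. For 76 members it lay within 2-fold, against 69.6% of all genes tested. The 5 members whose interval reached past 1.5-fold were Mrpl45, Mrpl52, Mrps22, Mrps25 and Mrps6, of which Mrps25 and Mrps6 are named because of these values. All genes tested include many at lower levels than the members, whose mean normalized counts ran from 131 to 1143, and low genes have wider intervals.

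**Figure D1:**
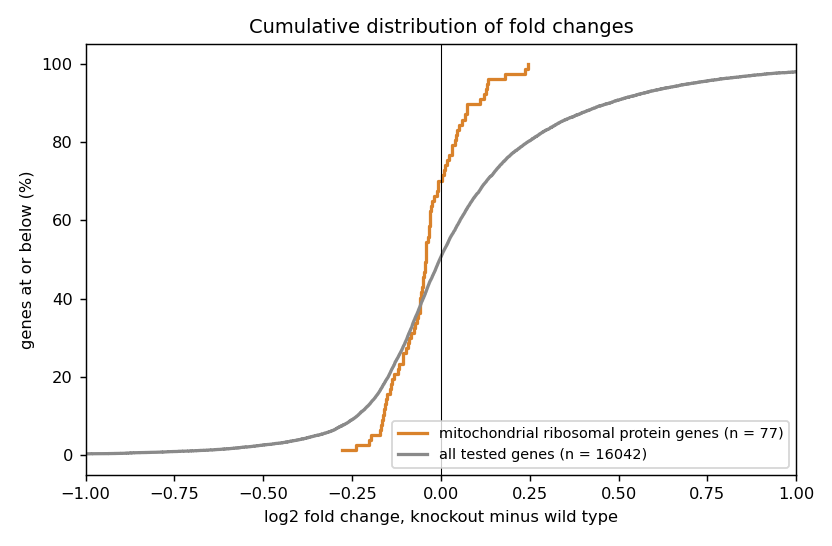
Cumulative share of genes (percent) at or below each log2 fold change, knockout minus wild type, for the 77 mitochondrial ribosomal protein genes and for all 16042 genes tested. The members' curve is steep, with every value between -0.28 and 0.25, and 70.1% of it lies below 0.

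More members were lower than higher. Of the 77, 54 (70.1%) had a log2 fold change below 0, against 50.6% of all genes tested. This balance turned on wild type replicate 1: without that library 37 members were lower and the median was 0.0074. Scaling by total reads gave 67 lower members, with the median of all genes at -0.07. The direction is that of values which did not pass the test singly, and no test of the members as a group was made.

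**Figure D2:**
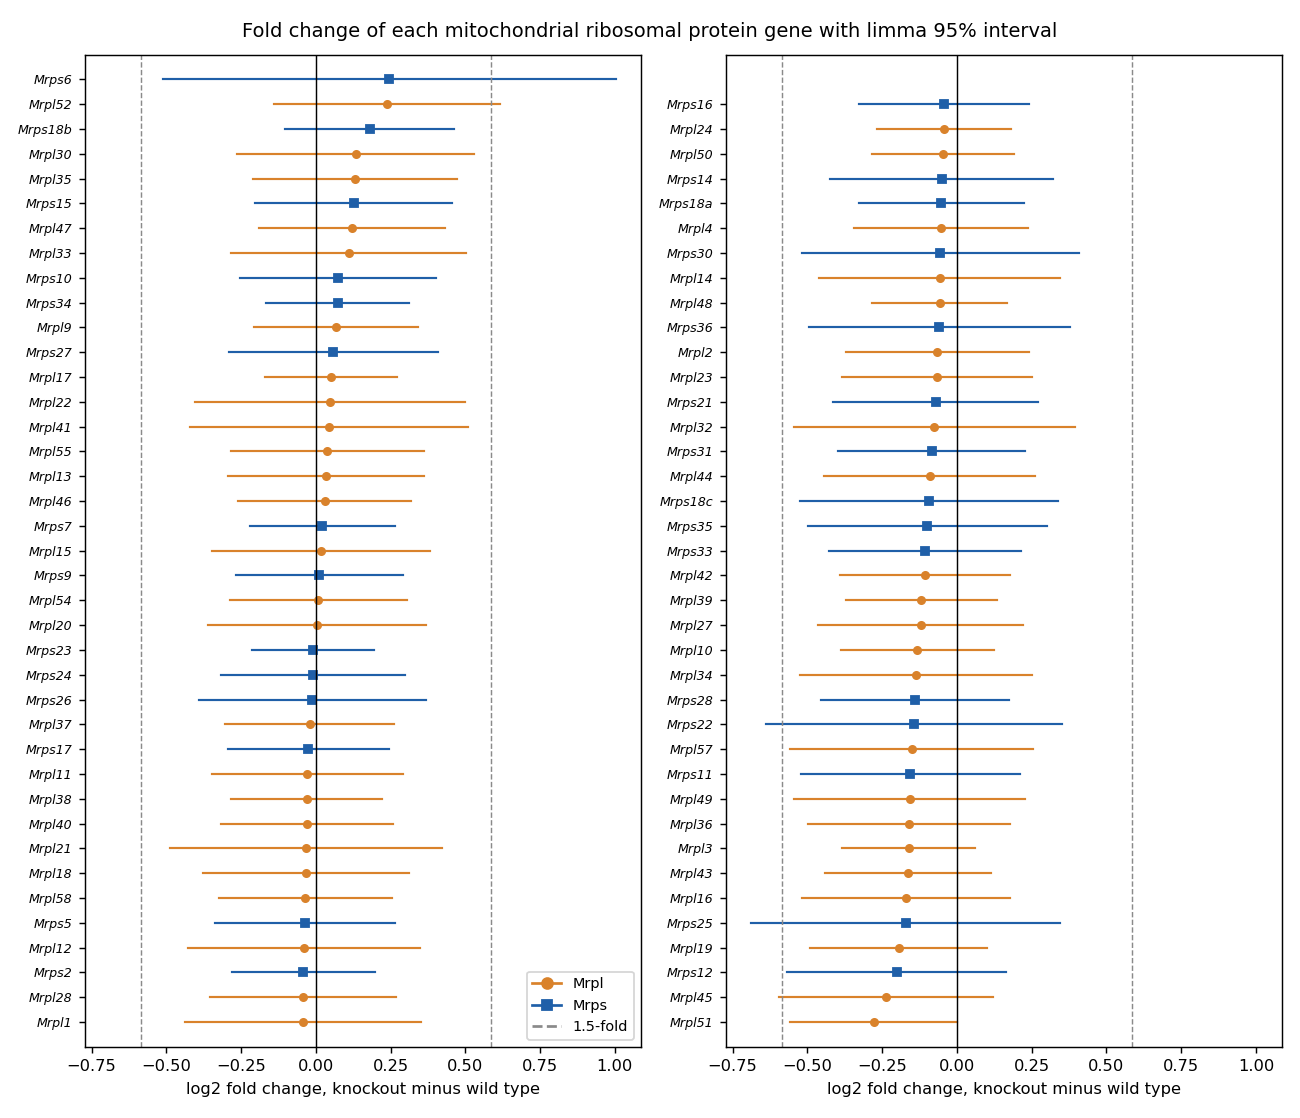
Log2 fold change, knockout minus wild type, of each mitochondrial ribosomal protein gene (circles Mrpl, squares Mrps) with its limma 95% interval, sorted from the highest value to the lowest across both panels. Dashed lines mark 1.5-fold, which the intervals of 5 members cross, and every interval but that of Mrpl51 includes 0.

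Among the large subunit genes, Mrpl51, which encodes a protein with no bacterial counterpart, had the smallest unadjusted p. It was at 619.6, 517 and 556 normalized counts in knockout replicates 1, 2 and 3, against 627, 724 and 702 in wild type replicates 1, 2 and 3. Every knockout library lay below every wild type library, but knockout replicate 1 and wild type replicate 1 were only a few counts apart. The log2 fold change was -0.28 (SE 0.12), with a limma unadjusted p of 0.0498 and an adjusted p of 0.993. The call at an unadjusted p under 0.05 was lost in edgeR's and DESeq2's tests on the recovered reads, where 0 members passed that mark.

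Mrpl3, a protein near the peptidyl transferase centre that is mutated in a human cardiomyopathy, was the other lower member with separate groups. It had 714, 759 and 778 normalized counts in knockout replicates 1, 2 and 3, and 885, 802 and 833 in wild type replicates 1, 2 and 3. The gap between the highest knockout and the lowest wild type value was smaller than the SD within either group (32.95 in knockout and 42.2 in wild type). Its log2 fold change was -0.16 (SE 0.09, limma adjusted p = 0.993). In GENCODE M21 its exons overlap those of the predicted genes Gm38077 and Gm47106.

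Mrpl45, which lies at the exit of the peptide tunnel and holds the ribosome at the inner membrane, averaged 280.3 ± 12.4 normalized counts in knockout and 333 ± 48.5 in wild type libraries (SD, n = 3 each). Its wild type values of 386, 321 and 291 reached down close to the highest knockout value of 294, and the groups overlapped. Its log2 fold change was -0.24 (SE 0.15), and -0.13 without wild type replicate 1. Mrpl19, a protein with a bacterial counterpart, averaged 376 ± 17.1 in knockout and 431 ± 39.7 in wild type libraries (SD, n = 3 each), also with overlap. Mrpl43, with no bacterial counterpart, had a log2 fold change of -0.16 (SE 0.12). Exons of Mrpl43 overlap those of Twnk, the mitochondrial DNA helicase, on the other strand.

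On the higher side were Mrpl52, Mrpl47, Mrpl35 and Mrpl30, with log2 fold changes between 0.12 and 0.24 and groups that overlapped in each. Mrpl52, a protein with no bacterial counterpart, was at 333, 254 and 274 normalized counts in knockout replicates 1, 2 and 3, against 261, 237 and 228 in wild type replicates 1, 2 and 3. Its highest value came from knockout replicate 1, the library with the largest acinar share, and the part of that share in the value was not tested. Knockout replicate 2 lay below wild type replicate 1. Single libraries moved these values by more than 1.5 times. Without knockout replicate 1 the log2 fold change was 0.13 for Mrpl52, 0.02 for Mrpl30 and 0.08 for Mrpl35. Without knockout replicate 3 it was 0.28 for Mrpl30 and 0.06 for Mrpl47.

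**Figure D3:**
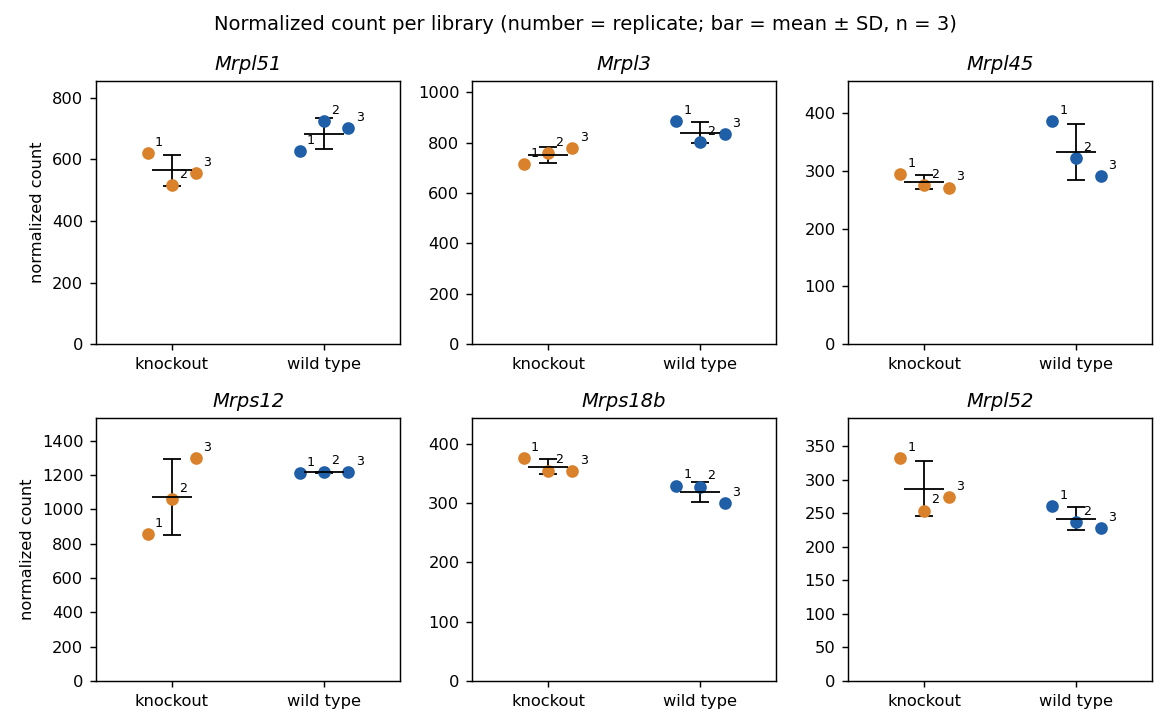
Normalized count (linear axis from 0) in each library for 6 members, with knockout left of wild type, numbers marking replicates and bars the mean ± SD (n = 3). In Mrpl51 and Mrpl3 every knockout value lies below the wild type values, in Mrps18b every one lies above, and in Mrpl45, Mrps12 and Mrpl52 the groups overlap.

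The stalk of the large subunit recruits the translation factors. Its proteins Mrpl10, Mrpl11 and Mrpl12 had log2 fold changes of -0.13, -0.03 and -0.04 (SE 0.11, 0.13 and 0.16), and Mrpl54, the other member listed with the stalk, had 0.01 (SE 0.12). Mrpl12, which has also been described as a partner of the mitochondrial RNA polymerase, averaged 376 ± 43.6 normalized counts in knockout and 388 ± 61.9 in wild type libraries (SD, n = 3 each). The values near the peptidyl transferase centre were -0.17 for Mrpl16 (SE 0.15) and -0.12 for Mrpl27 (SE 0.14). Mrpl44, whose human counterpart is also mutated in cardiomyopathy, had -0.09 (SE 0.15), and Mrpl58, a peptidyl-tRNA hydrolase that rescues stalled ribosomes, had -0.03 (SE 0.12). None of these passed the test (limma adjusted p between 0.993 and 0.999), and the sign of Mrpl11, Mrpl12, Mrpl44 and Mrpl58 changed when single libraries were left out.

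Among the small subunit genes, Mrps18b was the only member whose knockout values all lay above the wild type values. It was at 377, 355 and 354 normalized counts in knockout replicates 1, 2 and 3, and at 329.8, 328 and 299.8 in wild type replicates 1, 2 and 3. The log2 fold change was 0.18 (SE 0.12, limma adjusted p = 0.993). Mrps18b belongs to a family of paralogs related to 1 bacterial protein, of which Mrps18c keeps the bacterial position in the ribosome. Its relatives had values on the other side of 0, with -0.05 for Mrps18a (SE 0.12) and -0.09 for Mrps18c (SE 0.18). The difference between the paralogs was not tested. Exons of Mrps18b overlap those of the predicted gene Gm16279 on the other strand.

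Mrps12, the counterpart of the bacterial protein at the decoding site, had a wider spread in knockout than in wild type libraries, which was not tested. It was at 855, 1060.4 and 1299.7 normalized counts in knockout replicates 1, 2 and 3, against 1211, 1219 and 1215 in wild type replicates 1, 2 and 3. The wild type libraries lay within a few counts of each other, while the knockout libraries fell on both sides of them. Its log2 fold change was -0.20 (SE 0.15), and it was -0.05 without knockout replicate 1, -0.35 without knockout replicate 3 and -0.12 with the acinar level as a covariate. Knockout replicate 1, the lowest, had the highest acinar share and knockout replicate 3, the highest, had the lowest share. The part of acinar cells in this spread was not tested. Other members spread wider in wild type libraries, as Mrpl27 did with an SD of 2.29 in knockout and 46.96 in wild type libraries.

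Other small subunit genes lay closer to 0 or had wider errors. Genes whose human counterparts are mutated in mitochondrial disease had log2 fold changes of -0.04 for Mrps16 (SE 0.12), -0.14 for Mrps22 (SE 0.21) and 0.07 for Mrps34 (SE 0.10). Mrps27, an RNA-binding pentatricopeptide repeat protein, had 0.06 (SE 0.15), and Mrps5, a counterpart of a bacterial protein, had -0.04 (SE 0.13). Mrps15 had 0.13 (SE 0.14), and Mrps36 had -0.06 (SE 0.18). Mrps6, named here because of the values seen, had the widest interval, from -0.51 to 1.004. It was at 149.7, 171 and 117 normalized counts in knockout replicates 1, 2 and 3, and at 140.3, 163 and 78.3 in wild type replicates 1, 2 and 3. Its low value in wild type replicate 3 stood apart, and its exons overlap those of Slc5a3 on the same strand, so the genes could share reads.

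The subunits and their evolutionary classes gave nearly the same medians. The median log2 fold change was -0.04 for the 48 Mrpl genes and -0.04 for the 29 Mrps genes, with 33 and 21 of them lower. For large subunit proteins it was -0.04 in the 30 with a bacterial counterpart and -0.05 in the 20 without. For small subunit proteins it was -0.04 in the 16 with a counterpart and -0.05 in the 10 without. Mrps18a and Mrps18b were placed among the proteins without a counterpart, although they are paralogs of Mrps18c, which was placed among those with one. The ratio of summed large to summed small subunit values was 1.83, 1.83 and 1.84 in knockout replicates 1, 2 and 3, and 1.83, 1.88 and 1.84 in wild type replicates 1, 2 and 3. Wild type replicate 2 had the highest ratio, above all knockout libraries, and the other wild type libraries lay within the range of the knockout libraries.

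**Figure D4:**
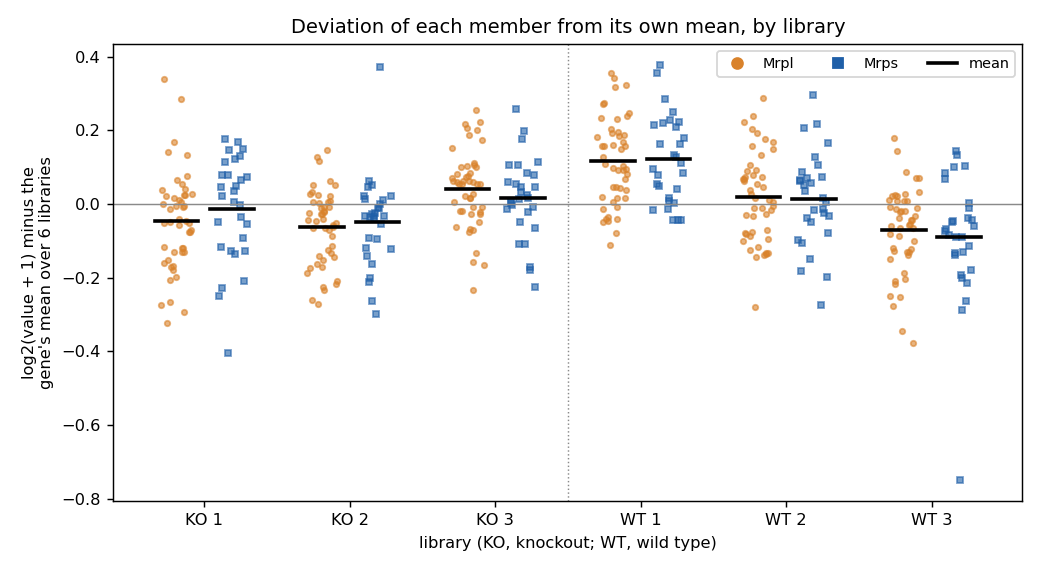
Deviation of each member in each library from that gene's own mean over the 6 libraries, in log2 units, with knockout libraries left of wild type ones. Black bars are means over the Mrpl genes (circles) and the Mrps genes (squares). The bars of both subunits move together, highest in wild type replicate 1 and lowest in wild type replicate 3.

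The spread between libraries of 1 genotype was larger than the difference between genotypes. As a mean over members, the deviation from each gene's own mean was -0.03, -0.06 and 0.03 log2 units in knockout replicates 1, 2 and 3. In wild type replicates 1, 2 and 3 it was 0.12, 0.02 and -0.08. Wild type libraries thus held both the highest and the lowest level, and the knockout libraries lay between them. Over all genes tested the mean deviation was 0.09, 0.05 and -0.05 in knockout replicates 1, 2 and 3. It was 0.05, -0.07 and -0.07 in wild type replicates 1, 2 and 3, so the low mean of wild type replicate 3 was not particular to the members. Wild type replicate 1 had the highest value of the 6 libraries in 37 of 77 members, against 3295 of all 16042 genes tested. The lowest value fell to knockout replicates 1 and 2 and to wild type replicate 3 in 21 members each. Over all genes tested it fell to these libraries in 3403, 2485 and 2554 genes. Within a genotype, the median coefficient of variation of a member was 8.05% in knockout and 9.27% in wild type libraries, against 15.3% and 14.9% over all genes tested. The highest value was under 1.5 times the lowest in 70 of 77 members, a property of 45.6% of all genes tested.

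As a share of all reads, the members took 0.125%, 0.144% and 0.164% in knockout replicates 1, 2 and 3, and 0.166%, 0.158% and 0.143% in wild type replicates 1, 2 and 3. The lowest share came from knockout replicate 1, where acinar genes took the most reads, and knockout replicate 3, with the fewest acinar reads, lay close to the highest share. The highest share came from wild type replicate 1, which had more acinar reads than the other wild type libraries. The part of acinar reads in these shares was not tested. In a bulk sample, fewer cells of a type and less RNA per cell cannot be told apart. With the acinar level as a covariate the members' median log2 fold change was -0.04, and that of all genes was -0.0060. With totals taken without acinar genes the members' median was -0.03, but that of all genes also moved, to 0.0143.

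Levels differed far more between members than between genotypes. As normalized counts per kb of coding sequence in GENCODE M21, averaged over the 6 libraries, they ran from 161 for Mrps27 to 2742 for Mrps12, a 17.0-fold range, with a median of 714. Mrps17 (1976) and Mrpl17 (1927) followed Mrps12, and Mrps30 (197) and Mrps22 (264) were the next lowest after Mrps27. The order depends on the length used. Per kb of the whole transcript Mrps12 kept rank 1 while Mrps17 went to rank 63 and Mrpl17 to rank 64 of 77. On that scale the range was wider, from 30.8 for Mrps25, named because of this value, to 1295 for Mrps12. Mrps17 and Mrpl17 have log2 fold changes of -0.02 (SE 0.11) and 0.05 (SE 0.09), and Mrps30 has -0.06 (SE 0.20).

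Other genes of mitochondrial translation, grouped by function, also had 0 calls, with 0 at an unadjusted p under 0.05. The 5 subunit genes with other symbols had a median log2 fold change of -0.02. The groups did not overlap in 1 of these genes (20%, against 9.08% of all genes tested). Among them Ptcd3, a small subunit protein of the pentatricopeptide repeat family, had separate groups with 669, 665 and 683 normalized counts in knockout replicates 1, 2 and 3, against 617, 618 and 619.9 in wild type replicates 1, 2 and 3. Its log2 fold change was 0.12 (SE 0.09, limma adjusted p = 0.993). Dap3, a GTP-binding subunit first described in cell death, had -0.10 (SE 0.14).

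The 18 translation factor and RNA stability genes had a median of -0.08, with 11 lower (61.1%, against 50.6% of all genes tested). The groups did not overlap in 1 of them (5.56%, against 9.08% of all genes tested). Letm1, an inner membrane protein of ion exchange that has been linked to mitochondrial ribosomes, was at 1640.5, 1585 and 1733 normalized counts in knockout replicates 1, 2 and 3, against 1869.6, 1851 and 1831 in wild type replicates 1, 2 and 3. The groups were separate, with a log2 fold change of -0.16 (SE 0.08, limma adjusted p = 0.993). Slirp, which stabilizes mitochondrial messenger RNA together with Lrpprc, had 0.33 (SE 0.21).

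The 33 ribosome assembly genes tested had a median of -0.03, with 21 lower, and the groups did not overlap in 5 of them (2 higher and 3 lower). That is 15.2% of the list, against 9.08% of all genes tested, and 63.6% of the list was lower, against 50.6% of all genes tested. Malsu1, a factor of large subunit assembly, was at 317, 276 and 275 normalized counts in knockout replicates 1, 2 and 3, against 213, 263 and 227 in wild type replicates 1, 2 and 3. Every knockout value was higher, with a log2 fold change of 0.31 (SE 0.15, limma adjusted p = 0.993). Yme1l1, a protease of the inner membrane, had -0.14 (SE 0.08), also with separate groups.

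The 16 genes of mitochondrial transcription, genome maintenance and biogenesis had a median of -0.03, with 12 lower, and held the widest single values. Of the list 75% was lower, against 50.6% of all genes tested. The groups did not overlap in 1 gene (6.25%), against 9.08% of all genes tested. Ppargc1a, the coactivator that drives mitochondrial biogenesis, was at 245, 290.4 and 168 normalized counts in knockout replicates 1, 2 and 3, against 184, 138 and 134 in wild type replicates 1, 2 and 3. Its groups overlapped, with a log2 fold change of 0.60 (SE 0.25). Twnk was at 296, 245 and 339 in knockout replicates 1, 2 and 3, against 411, 342 and 395 in wild type replicates 1, 2 and 3, without overlap. Its log2 fold change was -0.39 (SE 0.16), and neither gene passed the test (limma adjusted p = 0.993 for both).

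**Figure D5:**
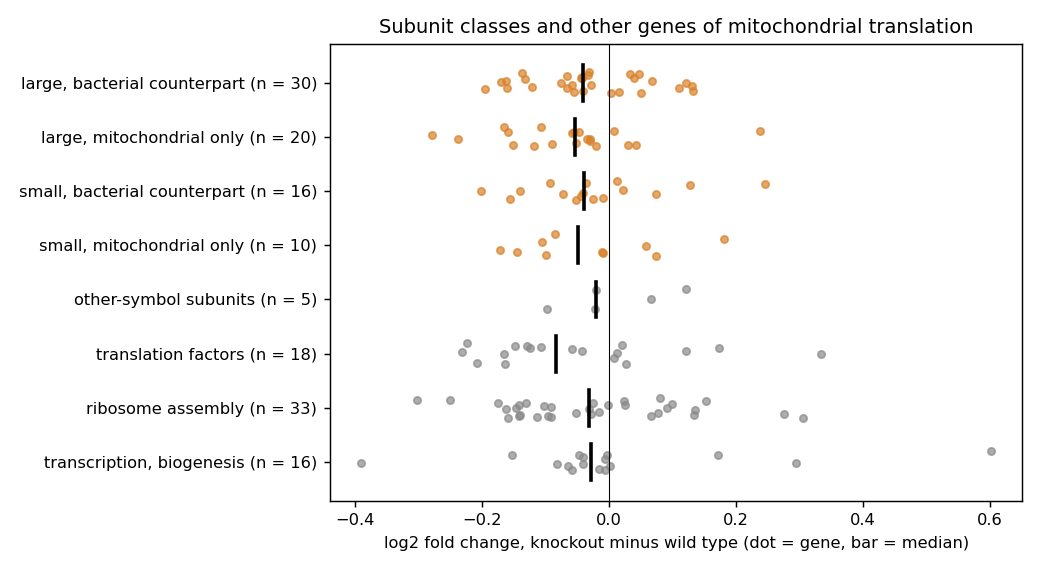
Log2 fold change, knockout minus wild type, of the genes of each subunit class and of the other lists of mitochondrial translation, with a dot per gene and a bar at the median. All medians lie between -0.08 and -0.02, and the widest values are those of Ppargc1a at 0.60 and Twnk at -0.39.

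Some sequence motifs were more frequent in the members' promoters than over all genes tested, and the choice by symbol did not use them. Transcription of these genes is known to draw on the factors NRF1, GABPA of the ETS family and YY1. RefSeq promoters on GRCm38.p6, from 250 bases before to 50 bases after the gene start, were found for 68 of 77 members, in 74 promoters. Those without an entry were Mrpl15, Mrps28, Mrpl19, Mrps35, Mrpl4, Mrpl54, Mrpl38, Mrpl13 and Mrps34. The NRF1 motif, read as GCGC, any base and TGCGC on either strand, was in 17.6% of the members' promoters, against 4.60% of all 32851 promoters of the table and 8.73% of those of genes tested here. The ETS motif CCGGAAG was in 33.8%, against 8.86% and 15.6%. The YY1 motif AAGATGGC was in 16.2%, against 2.75% and 3.93%. An ETS and a YY1 match can overlap by the letters AAG. At least 1 of the 3 motifs was found for 42 of 68 members (61.8%), against 29.4% of the genes tested. Both ETS and NRF1 matches were found for 4 of the 68 members, and all 3 motifs for 0. Over the 11712 genes tested that had a promoter, these counts were 271 and 19. The TATAAA box was in 6.76% of the members' promoters, against 13.6% of all promoters and 7.84% of those of genes tested. The CCAAT box was in 39.2%, against 37.4% and 37%, and the E-box CACGTG was in 9.46%, against 7.15% and 9.37%. A match is a run of letters, and binding was not measured here.

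The promoters shown are those of the 3 members whose groups did not overlap (Mrpl51, Mrpl3 and Mrps18b), of Mrpl45 for its 3 NRF1 matches and of Mrps12 for its level. They lie at chr6:125191950-125192249 on the plus strand for Mrpl51 and at chr9:105053018-105053317 on the plus strand for Mrpl3. Those of Mrps18b and Mrps12 lie at chr17:35916391-35916690 on the minus strand and chr7:28741772-28742071 on the minus strand, and that of Mrpl45 at chr11:97315466-97315765 on the plus strand. Each reads 5′ to 3′ along the gene, with motif matches in capitals.
Mrpl51: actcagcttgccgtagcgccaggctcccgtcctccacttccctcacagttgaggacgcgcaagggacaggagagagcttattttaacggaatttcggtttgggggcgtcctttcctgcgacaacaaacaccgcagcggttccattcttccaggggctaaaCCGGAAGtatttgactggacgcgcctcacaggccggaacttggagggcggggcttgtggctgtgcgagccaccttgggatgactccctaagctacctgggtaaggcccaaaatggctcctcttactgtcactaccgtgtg
Mrpl3: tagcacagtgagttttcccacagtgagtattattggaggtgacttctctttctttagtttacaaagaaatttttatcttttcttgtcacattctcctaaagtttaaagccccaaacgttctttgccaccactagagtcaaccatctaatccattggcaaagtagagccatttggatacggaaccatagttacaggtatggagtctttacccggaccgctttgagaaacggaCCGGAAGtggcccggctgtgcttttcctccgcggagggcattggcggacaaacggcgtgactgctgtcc
Mrps18b: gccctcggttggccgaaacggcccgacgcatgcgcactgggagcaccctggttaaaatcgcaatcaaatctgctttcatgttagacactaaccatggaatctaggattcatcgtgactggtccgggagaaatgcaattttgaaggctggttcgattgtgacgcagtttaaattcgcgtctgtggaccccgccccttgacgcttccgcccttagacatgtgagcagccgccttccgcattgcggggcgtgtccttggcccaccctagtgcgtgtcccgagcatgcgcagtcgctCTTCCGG
Mrpl45: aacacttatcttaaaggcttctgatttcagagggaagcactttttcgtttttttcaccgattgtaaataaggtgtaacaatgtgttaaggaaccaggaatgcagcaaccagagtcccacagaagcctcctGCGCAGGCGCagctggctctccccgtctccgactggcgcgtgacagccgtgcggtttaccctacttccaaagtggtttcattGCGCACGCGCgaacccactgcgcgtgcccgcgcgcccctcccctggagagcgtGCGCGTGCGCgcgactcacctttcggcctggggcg
Mrps12: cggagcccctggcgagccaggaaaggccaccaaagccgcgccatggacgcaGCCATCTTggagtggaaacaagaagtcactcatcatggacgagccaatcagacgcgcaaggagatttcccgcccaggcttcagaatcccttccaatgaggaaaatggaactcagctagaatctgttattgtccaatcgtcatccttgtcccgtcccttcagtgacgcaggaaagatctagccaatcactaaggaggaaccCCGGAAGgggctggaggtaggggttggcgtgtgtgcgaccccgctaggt
In Mrpl51 and Mrpl3 the ETS match begins 90 and 19 bases before the gene start. In Mrps18b it lies on the opposite strand and begins 43 bases after the start. In Mrps12 an ETS match begins 1 base after the start and a YY1 match 199 bases before it. The NRF1 matches of Mrpl45 begin 120 and 38 bases before and 15 bases after the start. Of the 5 promoters shown, that of Mrpl45 held no ETS match. Motifs were not set against the direction of change over the members, and 0 of these genes passed the test.

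Many members stand head to head with another gene. In GENCODE M21 a protein-coding neighbour on the other strand started within 1000 bp upstream, or within 200 bp inside the gene, for 23 of 77 members (29.9%). The same held for 1515 of the 13796 protein-coding genes tested. Mrps12 faces Sars2, a mitochondrial seryl-tRNA synthetase, Mrpl36 faces Ndufs6, a subunit of respiratory complex I, and Mrps18b faces Ppp1r10. Exons of 30 members (39%) overlap exons of another annotated gene, and the share over all genes tested was not counted. Since the strand setting of the counting is not given in the sources used here, reads of such pairs could have been counted for either gene.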

How the data were processed

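RNA from frozen mouse islets was sequenced in 6 libraries. Per the submitters' processing notes reads were aligned with HISAT2. The sources used here name no counting tool, genome build or strand setting. In the deposited table each signal value is a count scaled by the authors with 1 size factor per library: within 0.01 reads, 100% of a library's values came out as whole reads, each worth between 0.879 and 1.23, and the factors matched those of DESeq2. Every one of the 18437 genes had at least 1 read in each library. Mitochondrially encoded genes were not analysed here.

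The 16042 genes reaching 10 in 3 or more libraries were tested as log2(value + 1), a scale that shrinks the fold change of low genes. The test of knockout minus wild type was limma 3.58.1 (R 4.3.3) with trend, two-sided, using Benjamini-Hochberg adjustment over all genes at 0.05. As alternatives, recovered reads were tested with edgeR 4.0.16 and with DESeq2 1.42.0. Other pseudocounts, filters, scalings and variance models, a replicate block, an acinar covariate and the omission of each library were also tried. The script was tested on simulated counts. The members and lists were chosen with earlier results of these data known, so no group test was made. Genes named were the 6 members of smallest p per direction, 19 fixed members, the 3 highest and 3 lowest per coding length, the 2 smallest p of each list, and Sec16b. No 2 replicates agreed within sampling noise (chi-square per degree of freedom 49.9 to 284). Same-numbered libraries did not deviate together in every pair (correlations 0.43, 0.0037 and 0.37). With 3 libraries per genotype these correlations cannot settle whether the numbers mark pairs. The main test did not use the numbers as pairs, and the replicate block did. GENCODE M21 and RefSeq gave lengths, neighbours and promoters only.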

Additional observations from a re-analysis of the deposited data

How the results depend on the processing

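Across 19 alternatives in pseudocount, filter, scaling, variance model, tool, block, acinar covariate and libraries, limma and edgeR called 0 genes, and DESeq2 called 9 of 16042, of which 0 were members (45 adjusted p undefined). Genes at an unadjusted p under 0.05 numbered 494 in all, 509 with edgeR, 802 with voom, 864 with the block, 345 with scaling by total reads, and 335 (without knockout replicate 1) to 1127 (without knockout replicate 3) with single libraries left out. With the replicate number as a replicate block the count of genes called stayed at 0, members at an unadjusted p under 0.05 were 0, and the members' median was -0.0427. Knockout replicates 1 and 3 correlated best with the wild type library of their own number (0.4302 and 0.3651). Knockout replicate 2 did not correlate best with its own number (0.0037, against 0.0343 with wild type replicate 1).

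Members at an unadjusted p under 0.05, 1 in all, were 0 with a pseudocount of 8, no filter, TMM or upper quartile scaling, edgeR, DESeq2, the block or the acinar covariate, and 0 to 1 with single libraries left out. Leaving out single libraries gave medians between -0.0667 and 0.0074 for all members, between -0.0888 and 0.0008 for Mrpl genes and between -0.0601 and 0.0313 for Mrps genes. All 3 upper ends came without wild type replicate 1. The cause was not tested.

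Of 741 values for 39 single genes, 718 kept their sign and 23 changed it, and 0 passed the threshold. Under scaling by total reads the log2 fold change was -0.0123 for Mrps27 and -0.0210 for Mrpl17. With voom and array weights it was 0.0712 for Mrpl12, 0.0396 for Mrpl11, 0.0055 for Mrpl58 and 0.0156 for Mrps30. With single libraries left out, it ran from -0.1162 to 0.0865 for Mrpl12, from -0.0829 to 0.0447 for Mrpl11, from -0.102 to 0.0374 for Mrpl58 and from -0.1728 to 0.0237 for Mrpl44. The ranges were -0.0976 to 0.0689 for Mrps5, -0.1333 to 0.0165 for Mrps18a, -0.1698 to 0.0323 for Mrps36, -0.0794 to 0.0592 for Mrps17, -0.1594 to 0.1203 for Mrps30 and -0.1942 to 0.0016 for Dap3. The cause was not tested. With 3 libraries per genotype, changes smaller than the intervals given could not be detected.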

Other observations

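The entries left out as pseudogenes were low. Mrpl23-ps1 was at 4.91, 9.37 and 9.97 normalized counts in knockout replicates 1, 2 and 3, and at 6.01, 4.84 and 3.52 in wild type replicates 1, 2 and 3. Mrpl48-ps was at 4.91, 12.2 and 10.96 in knockout replicates 1, 2 and 3, and at 16.04, 13.6 and 12.3 in wild type replicates 1, 2 and 3. Mrpl27-ps was at 4.91, 3.75 and 5.98 in knockout replicates 1, 2 and 3, and at 11.03, 6.78 and 7.91 in wild type replicates 1, 2 and 3. Only Mrpl48-ps passed the filter on low values. Their parent genes Mrpl23, Mrpl48 and Mrpl27 averaged 332, 568 and 302 normalized counts in knockout libraries and 347, 591 and 331 in wild type libraries, far above the pseudogenes in every library.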
